A study of Homo sapiens with 30 samples.

Results

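The human mitochondrial genome is a circle of 16569 bases that carries 37 genes, and all 37 were rows of the count table of 60107 genes. They were chosen as the rows whose Ensembl identifier maps to a symbol that starts with MT-: 13 genes for messenger RNAs (mRNAs), 2 for ribosomal RNAs (rRNAs) and 22 for transfer RNAs (tRNAs). The values came from HepG2, an established human liver tumour line, in 30 libraries that fell into 10 groups of 3. Before treatment the cells had received 1 of 5 transfections. I200c cells carried an inhibitor directed at miR-200c-3p and IC cells the control for inhibitors, while M222 and M512 cells carried mimics for miR-222-5p and miR-512-3p and MC cells the control for mimics. 24 h later they received the multikinase inhibitor sorafenib at 10 µM or the solvent DMSO, for 6 h (IC and I200c) or for 24 h (MC, M222 and M512). All groups were thus transfected cells of 1 line, and no library of cells without an oligonucleotide was analysed here. Time cannot be told apart from the kind of control oligonucleotide, since 6 h was measured with inhibitors and 24 h with mimics.

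Both strands of mitochondrial DNA are transcribed from promoters in the control region into long RNAs that cover most of the circle, and these are then cut into single RNAs. tRNA genes lie between most of the mRNA and rRNA genes, and the cuts at both ends of a tRNA also free its neighbours. Most of the freed mRNAs receive short poly(A) tails in the organelle, which in several cases complete the stop codon. The 13 mRNAs code for subunits of the respiratory chain and ATP synthase: 7 of complex I (MT-ND1 to MT-ND6 and MT-ND4L), 1 of complex III (MT-CYB), 3 of complex IV (MT-CO1, MT-CO2 and MT-CO3) and 2 of complex V (MT-ATP6 and MT-ATP8). The rRNAs MT-RNR1 and MT-RNR2 are the small and large rRNA of the mitochondrial ribosome.

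By template, 28 of the genes (12 mRNAs, both rRNAs and 14 tRNAs) are copied from the heavy strand and stand on the + strand of the GRCh38 sequence, and 9 (MT-ND6 and 8 tRNAs) are copied from the light strand and stand on the - strand. QuantSeq 3′ libraries are primed with oligo(dT) and are meant to give 1 read near the 3′ end of an RNA. Read positions were not examined, and A-rich stretches inside the genes (up to 15 A in 20 bases) could be primed as well, so how much of a count comes from the gene's end is not known. The sequences that follow are 30 bases of GRCh38 on the sense strand, 15 before and 15 after the annotated end of the gene. They are shown for the large rRNA and its neighbours, for the 3 mRNAs of complex IV, for MT-ND3, for the pair MT-ND5 and MT-ND6 and for a pair of tRNAs of the light template, all of which are described with their values further on. Capitals mark the letters of the stop codon in an mRNA gene and the last 15 bases of a tRNA or rRNA gene.
MT-RNR2 (chrM:3215-3244, + strand): CCAAGAACAGGGTTTgttaagatggcagag
MT-TV (chrM:1656-1685, + strand): ACTTGACCGCTCTGAgctaaacctagcccc
MT-TL1 (chrM:3290-3319, + strand): TTCCTCTTCTTAACAacatacccatggcca
MT-ND1 (chrM:4248-4277, + strand): tccccctcaaaccTAagaaatatgtctgat
MT-CO1 (chrM:7431-7460, + strand): tacataaaatctAGAcaaaaaaggaaggaa
MT-CO2 (chrM:8255-8284, + strand): gtatttaccctaTAGcaccccctctacccc
MT-CO3 (chrM:9976-10005, + strand): attgatgagggtctTactcttttagtataa
MT-ND3 (chrM:10390-10419, + strand): tagactgaaccgaaTtggtatatagtttaa
MT-ND5 (chrM:14134-14163, + strand): ctcctaatcacaTAAcctattcccccgagc
MT-ND6 (chrM:14134-14163, - strand): gctcgggggaatAGGttatgtgattaggag
MT-TY (chrM:5811-5840, - strand): GGCCTCTTTTTACCAgctccgaggtgattt
MT-TP (chrM:15941-15970, - strand): AGACTTTTTCTCTGAtttgtccttggaaaa

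In 6 of the 13 mRNA genes the DNA holds only the first letter or letters of the stop codon, as the single T of MT-CO3 and MT-ND3 and the TA of MT-ND1 show. MT-CO1 ends with AGA and MT-ND6 with AGG. The windows of MT-ND5 and MT-ND6 cover the same positions on opposite strands, because these genes end against each other. The end of MT-CO1 lies against the tRNA gene MT-TS1 on the other strand in the same way, and that of MT-TT against MT-TP. How strand was handled in counting is not stated, so reads of a gene and of an RNA that runs antisense to it cannot be told apart. This touches all 9 genes of the light template, since the heavy template's long RNA runs opposite to each. Counts of tRNA genes are uncertain for a further reason: a tRNA gene is shorter than most of these RNAs and borders them, so that an uncut precursor gives reads in it as well. MT-ATP8 and MT-ATP6 share 46 bases, MT-ND4L and MT-ND4 share 7, and MT-TI and MT-TQ 3. MT-ATP6 and MT-CO3 as well as MT-TC and MT-TY share 1. Counts of these genes are uncertain at least to that extent. No tRNA gene lies between MT-ATP8 and MT-ATP6 or between MT-ND4L and MT-ND4. Counts of MT-ATP8 and MT-ND4L thus need not come from an RNA that ends there. MT-ATP8 also had the most A in 20 bases (15) of all members.

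The libraries held 3938764 to 9657063 counts. With 3 counts as the limit, a gene without a count may still have had 0.311 to 0.762 counts in each 1000000 of a library (CPM), depending on the library. This covers counting error only, since no molecular identifiers are stated and PCR copies are not independent. The hepatic markers ALB, AFP, APOA1, APOB, TTR, SERPINA1, FGB and HNF4A had counts in all 30 libraries. Of the markers of other cells, PTPRC had a count in 1 library and CD3E, COL1A2 and VWF in none. Nuclear copies of mitochondrial genes, which can take or receive reads of the true genes, numbered 390 in the table. Of these, 105 had a count, and together they held 141184 counts or 0.336% of the 41966497 counts of the mitochondrial genes. MTATP6P1 held 90.2% of them (127417 counts), followed by MTND2P28 with 5045 and MTND1P23 with 1699.

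The mitochondrial genes took 17.5% to 26.8% of all counts of a library. Fewer mitochondria per cell, less RNA per mitochondrion and a difference in poly(A) tails or priming cannot be told apart in such shares. Tail lengths were not measured. I200c_DMSO replicate 2 had the highest share (26.8%) and M512_sorafenib replicate 3 the lowest (17.5%). With sorafenib at 24 h the mean share as a whole stayed near its level with DMSO. In MC it was 22.3 ± 1.41% with DMSO and 22.01 ± 1.86% with sorafenib (mean ± SD, n = 3). It was 22.1 ± 0.420% and 21.95 ± 0.773% in M222, and 19.9 ± 0.269% and 21.96 ± 3.88% in M512. These differences were smaller than the larger SD of each pair. In M512, however, the libraries were at 19.9, 20.2 and 19.7% with DMSO and 24.2, 24.2 and 17.5% with sorafenib. The make-up of this share differed in all 3 transfections.

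mRNAs took 14.6, 13.2 and 13.3% of the counts in the libraries of MC with DMSO and 10.8, 11.6 and 10.4% in those with sorafenib. In M222 the mRNA share was 14.9, 14.1 and 15.01% with DMSO and 10.4, 10.9 and 9.32% with sorafenib, and in M512 it was 12.8, 12.52 and 13.8% and 10.2, 10.5 and 8.30%. All 9 sorafenib libraries of 24 h were below all 9 DMSO libraries. The mean difference was -2.77 percentage points in MC, -4.45 in M222 and -3.38 in M512. These are shares of total counts. With the TMM scaling that is used for single genes below, the full separation did not hold. On that scale M512_sorafenib replicate 2 (TMM factor 0.795) lay above M512_DMSO replicate 1 (TMM factor 1.03). At 6 h the groups overlapped: the mRNA share was 12.96 ± 0.949% with DMSO and 12.3 ± 0.319% with sorafenib in IC, and 14.8 ± 2.50% and 12.8 ± 0.673% in I200c.

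The rRNA share went the other way at 24 h. In MC it was 8.95, 8.80 and 7.49% with DMSO and 12.7, 8.51 and 11.3% with sorafenib, where replicate 2 with sorafenib lay inside the DMSO range. In M222 it was 7.31, 7.79 and 6.48% with DMSO and 12.1, 10.9 and 11.6% with sorafenib, and in M512 6.84, 7.56 and 5.82% and 13.6, 13.3 and 8.98%. In these 2 transfections the groups did not overlap. The mean difference was 2.44 percentage points in MC, 4.34 in M222 and 5.22 in M512. At 6 h it was 0.418 in IC and 0.1396 in I200c, and neither kept its sign when each library was left out in turn; with nuclear counts as the denominator that of I200c was -0.151. tRNAs took 0.105% to 0.473% of the counts, that is 0.897% of the counts of all mitochondrial genes, and MT-TL1 and MT-TF held 88.8% of the tRNA counts.

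**Figure D1:**
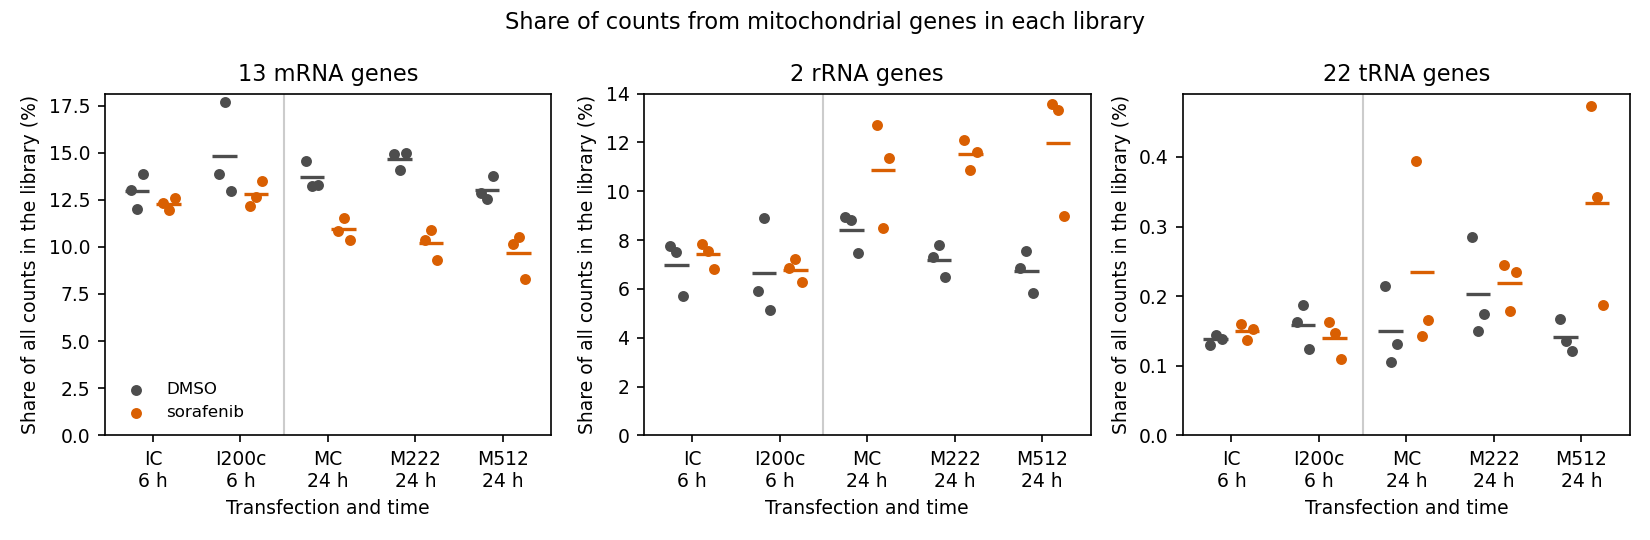
Share of all counts (%, vertical axis) taken by the 13 mRNA, 2 rRNA and 22 tRNA genes in each of the 30 libraries, by transfection and time (horizontal axis). Points are libraries and bars are means of 3, with DMSO in grey and sorafenib in orange; at 24 h every sorafenib library has a lower mRNA share (8.30% to 11.6%) than every DMSO library (12.52% to 15.01%). Shares are of total counts and are not TMM-scaled.

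Levels of single genes are given as CPM after TMM scaling over the 30 libraries, and differences as log2 fold changes of sorafenib against DMSO with their standard error (SE). Genes are compared with each other by CPM and per kilobase (kb) of gene. A 3′ library is meant to give 1 read per RNA whatever its length, so division by length favours short genes. By CPM, MT-ND4 ranked 1 among the mRNAs in all 10 groups (group means 24726 to 32077 CPM). MT-CO3 ranked 2 to 3, MT-CO2 2 to 5, MT-ND3 4 to 6 and MT-ATP8 4 to 9. Per kb, the group means of MT-ATP8 (30796 to 72567 CPM per kb) and MT-ND3 (22356 to 49442 CPM per kb) were instead the highest in all 10 groups. MT-ND3 was above MT-ATP8 in IC with DMSO and with sorafenib and in M512 with DMSO. MT-ATP8 was above MT-ND3 in the others. Next to them were MT-CO3 (16504 to 29363 CPM per kb), MT-ND4 (17943 to 23278 CPM per kb), MT-CO2 (11858 to 28566 CPM per kb) and MT-ATP6 (15333 to 21872 CPM per kb), and the ranges of these 4 overlap. Lower values per kb belonged to MT-ND2 (7263 to 12927 CPM per kb), MT-ND4L (5944 to 8058 CPM per kb), MT-CYB (4907 to 6465 CPM per kb), MT-ND1 (3903 to 7078 CPM per kb), MT-ND5 (1705 to 3369 CPM per kb) and MT-CO1 (1167 to 3680 CPM per kb). MT-ND6, the only mRNA of the light template, was lowest (142 to 349 CPM per kb) and below every other mRNA in all 10 groups. Counts depend on priming by oligo(dT) as well as on the amount of an RNA. Whether MT-ND6 RNA carries a tail was not examined, so its low count does not by itself show a low amount. The 9 genes of the light template held 0.0780% of all counts of mitochondrial genes.

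Genes were tested one by one in edgeR with adjustment over all genes, and a gene was called at an adjusted p under 0.05. At 6 h 31 of the 37 genes passed the filter on low counts (MT-TW, MT-TN, MT-TS1, MT-TK, MT-TR and MT-TE did not), and at 24 h also 31 (MT-TW, MT-TN, MT-TS1, MT-TK, MT-TR and MT-TG did not). All mRNAs and rRNAs passed. Averaged over the 3 transfections of 24 h, 16 of the 31 genes were called, 6 higher and 10 lower with sorafenib, where 25.8% of all 13244 genes tested were called (13.4% higher and 12.4% lower). With scaling by total counts 18 members were called (6 higher and 12 lower) and all genes split into 1204 higher and 2462 lower, with a median of -0.17 over all genes. All 16 remained called when any 1 of the 18 libraries was left out. Of the 13 mRNAs, 2 rose (MT-CO1 and MT-ND1), 4 fell (MT-CO2, MT-ND3, MT-CO3 and MT-ND5) and 7 did not pass, with a median log2 fold change of -0.10 against -0.04 over all genes. Of the rRNAs MT-RNR2 rose, and of the 16 tRNAs tested 3 rose (MT-TV, MT-TL1 and MT-TI) and 6 fell (MT-TY, MT-TP, MT-TL2, MT-TC, MT-TT and MT-TF).

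**Figure D2:**
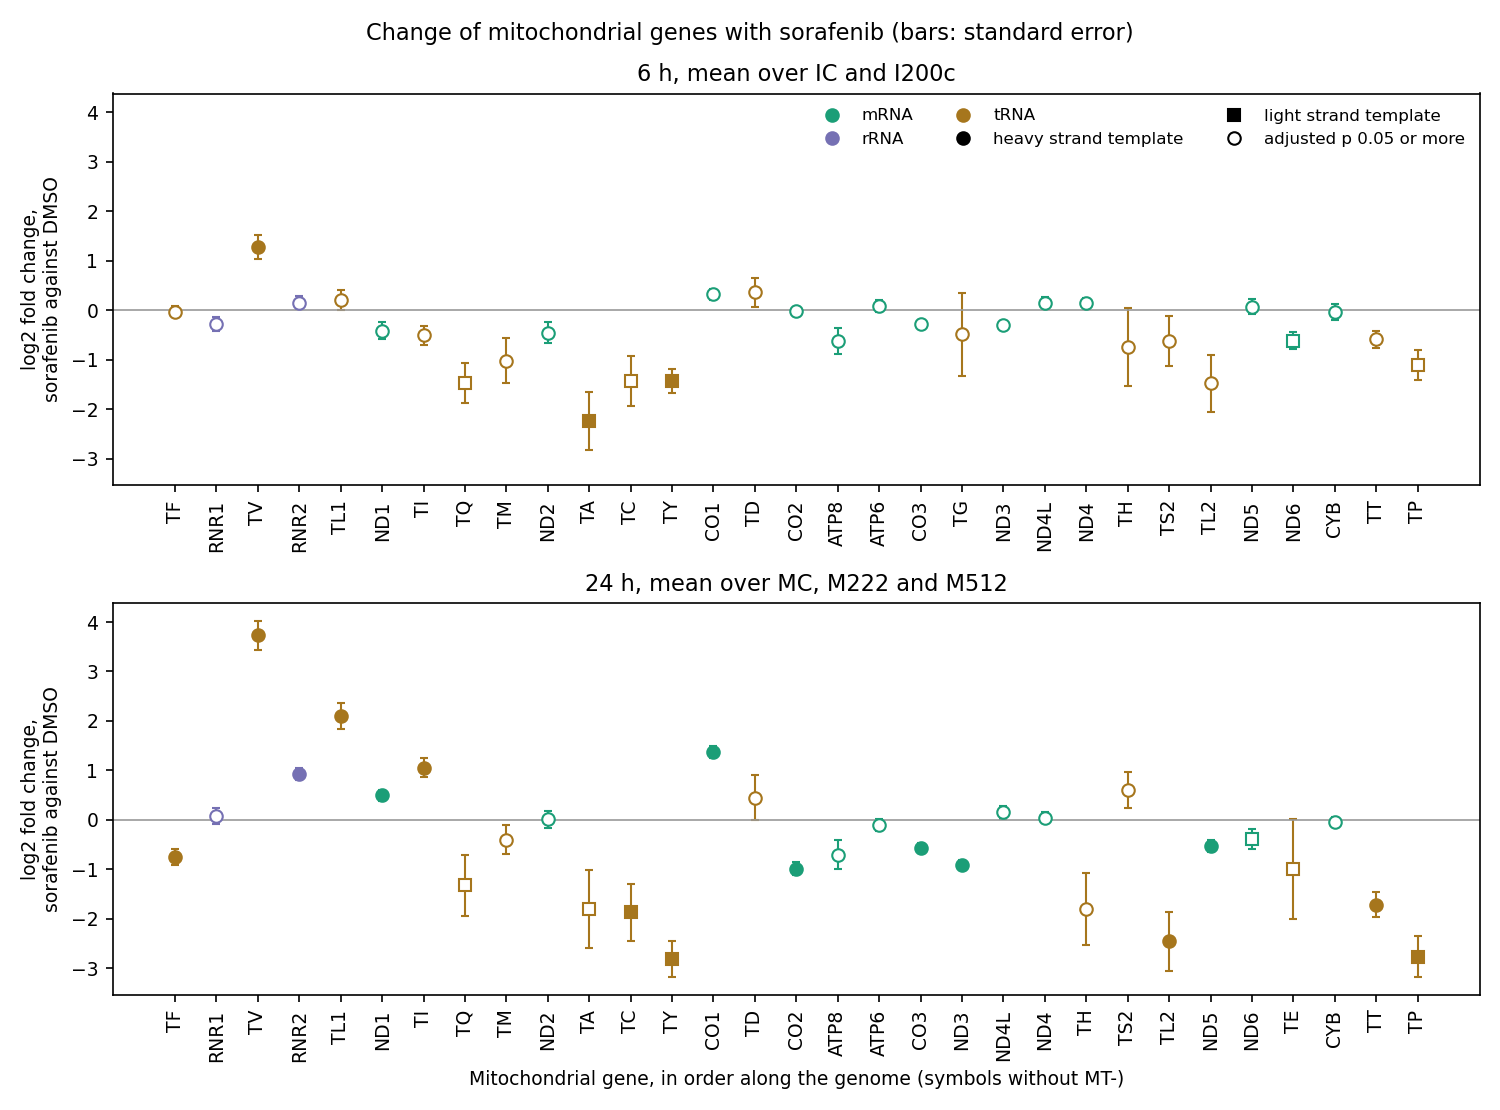
Log2 fold change of sorafenib against DMSO (vertical axis, bars SE) for each mitochondrial gene tested, in order along the genome (horizontal axis), as the mean over IC and I200c at 6 h (top) and over MC, M222 and M512 at 24 h (bottom). Filled symbols have an adjusted p under 0.05, circles stand for the heavy and squares for the light template; at 24 h the run from TV to TI is above 0 throughout and all 7 light template genes are below 0.

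Neighbours in the genome make up most of the genes that rose at 24 h: MT-TV, MT-RNR2, MT-TL1, MT-ND1 and MT-TI follow each other from position 1602 to 4331, and all of them were called higher. The genes just before this stretch, MT-TF and MT-RNR1, were not called higher. MT-CO1 rose as well and lies apart from it.

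MT-RNR2 (ENSG00000210082; chrM:1671-3229, + strand), the large rRNA, held the most counts of all mitochondrial genes. It was at 60796, 68232 and 52397 CPM with DMSO and 106986, 69892 and 102384 CPM with sorafenib in MC. In M222 it was at 48073, 62799.8 and 46697 CPM with DMSO and 108821, 97918 and 110302 CPM with sorafenib, and in M512 at 50246, 58794 and 46200.1 CPM with DMSO and 124282, 144906 and 84947 CPM with sorafenib. Every sorafenib library of 24 h was above every DMSO library of its transfection. The mean log2 fold change over the 3 transfections was 0.93 ± 0.12 (edgeR adjusted p = 3.95e-06). At 6 h MT-RNR2 was at 60644, 58498 and 44823 CPM with DMSO and 64986, 60648 and 60029.7 CPM with sorafenib in IC and at 40937, 73841 and 37745 CPM with DMSO and 55187, 58655 and 54865 CPM with sorafenib in I200c, and these groups overlapped.

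MT-RNR1 (ENSG00000211459; chrM:648-1601, + strand), the small rRNA, lies upstream in the same long RNA. Its level was 24261, 15900.3 and 18477 CPM with DMSO and 26367, 13994 and 14341 CPM with sorafenib in MC. It was 21679, 16273 and 17323 CPM with DMSO and 20329, 14729 and 15428 CPM with sorafenib in M222 and 16181, 15193 and 10861 CPM with DMSO and 26592, 22673 and 10795 CPM with sorafenib in M512. The groups overlapped in all 3, and the log2 fold change was 0.09 ± 0.16 (edgeR adjusted p = 0.734). At 6 h it was at 13603, 13615 and 10107 CPM with DMSO and 13189.7, 12216 and 8477 CPM with sorafenib in IC and at 14863, 16483 and 9429 CPM with DMSO and 11188, 11928 and 7864 CPM with sorafenib in I200c, also with overlap. The ratio of MT-RNR2 to MT-RNR1 counts was 2.22 to 4.29 (median 3.11) in the 9 DMSO libraries of 24 h and 4.06 to 7.87 (median 6.39) in the 9 with sorafenib. At 6 h it was 2.75 to 4.48 (median 4.37) in 6 DMSO libraries and 4.92 to 7.08 (median 4.95) in 6 with sorafenib.

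Between both rRNA genes lies MT-TV (ENSG00000210077; chrM:1602-1670, + strand), the tRNA for valine, which had the largest rise of the 31 genes at both times. With DMSO its level was low, and in MC it was at 26.9, 16.5 and 10.1 CPM with DMSO and 387, 58.1 and 128 CPM with sorafenib. With M222 it was at 12.9, 38.3 and 22.7 CPM with DMSO and 142, 98.3 and 144 CPM with sorafenib and in M512 at 9.86, 9.81 and 5.92 CPM with DMSO and 348, 407 and 336 CPM with sorafenib. No sorafenib library of 24 h overlapped the DMSO libraries of its transfection, and the log2 fold change was 3.73 ± 0.29 (edgeR adjusted p = 2.58e-09). At 6 h MT-TV was at 26.4, 38.4 and 14.4 CPM with DMSO and 49.1, 40.9 and 27.7 CPM with sorafenib in IC, with overlap, and at 9.68, 14.4 and 7.05 CPM with DMSO and 62.7, 37.8 and 24.6 CPM with sorafenib in I200c, without.

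MT-TL1 (ENSG00000209082; chrM:3230-3304, + strand), the leucine tRNA that reads UUR codons, borders the end of MT-RNR2. It was at 688, 295 and 356 CPM with DMSO and 2967, 596 and 1099 CPM with sorafenib in MC, where replicate 2 with sorafenib lay inside the DMSO range. Its level was 855, 479 and 465 CPM with DMSO and 1889.9, 1078 and 1882 CPM with sorafenib in M222 and 402, 290.1 and 269 CPM with DMSO and 4049.5, 3018 and 1219.7 CPM with sorafenib in M512, without overlap. Over the 3 transfections the log2 fold change was 2.11 ± 0.26 (edgeR adjusted p = 2.50e-06). After 6 h it was at 415, 452 and 372 CPM with DMSO and 569.8, 456 and 454 CPM with sorafenib in IC and at 280.5, 534 and 182 CPM with DMSO and 509, 394 and 227 CPM with sorafenib in I200c, and the averaged change of 6 h was 0.21 ± 0.20 (edgeR adjusted p = 0.67).

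MT-ND1 (ENSG00000198888; chrM:3307-4262, + strand), a membrane subunit of complex I, follows MT-TL1. It was at 3283, 4864 and 3047 CPM with DMSO and 5732, 5195 and 6476 CPM with sorafenib in MC and at 4133, 5573 and 3799 CPM with DMSO and 6406, 6551 and 6249 CPM with sorafenib in M222, both without overlap. In M512 it was at 4205, 5307 and 6141 CPM with DMSO and 5771, 7441 and 7086 CPM with sorafenib, with overlap. The averaged log2 fold change was 0.49 ± 0.12 (edgeR adjusted p = 0.00264), although no single transfection called it. At 6 h the levels were 5566, 4586 and 7822 CPM with DMSO and 4576, 4411 and 6354 CPM with sorafenib in IC and 4678, 9527 and 4678 CPM with DMSO and 3232, 4013 and 5364 CPM with sorafenib in I200c, with overlap.

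MT-TI (ENSG00000210100; chrM:4263-4331, + strand), the tRNA for isoleucine, closes this stretch. With MC it was at 17.1, 21.8 and 13.2 CPM with DMSO and 21.9, 19.4 and 50.9 CPM with sorafenib, with overlap. Under M222 it stood at 35.2, 22.9 and 16.5 CPM with DMSO and 81.3, 54.2 and 44.9 CPM with sorafenib and in M512 at 16.5, 18.9 and 18.03 CPM with DMSO and 44.9, 32.5 and 37.04 CPM with sorafenib, and in both every sorafenib library was higher. Over the 3 transfections the change was 1.06 ± 0.20 (edgeR adjusted p = 3.06e-04). At 6 h its level was 18.7, 20.004 and 17.8 CPM with DMSO and 23.3, 22.5 and 15.5 CPM with sorafenib in IC and 26.5, 15.04 and 17.7 CPM with DMSO and 6.49, 10.6 and 10.3 CPM with sorafenib in I200c, where every sorafenib library was lower.

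MT-CO1 (ENSG00000198804; chrM:5904-7445, + strand), the catalytic subunit of complex IV, had the largest change of the mRNAs. It was at 1934, 2532 and 1952 CPM with DMSO and 5937, 3538 and 5801 CPM with sorafenib in MC. In M222 it was at 2071, 2772 and 2051 CPM with DMSO and 6488, 4401 and 5639 CPM with sorafenib and in M512 at 1824, 1673 and 1899 CPM with DMSO and 5859, 6623 and 4541 CPM with sorafenib. All sorafenib libraries of 24 h were higher, and the averaged log2 fold change was 1.38 ± 0.12 (edgeR adjusted p = 2.39e-08). After 6 h the level was 2287, 2603 and 1911 CPM with DMSO and 2840.1, 2983 and 2803 CPM with sorafenib in IC and 1914, 2294 and 2159 CPM with DMSO and 2262, 2459 and 3212 CPM with sorafenib in I200c, and the averaged change was 0.32 ± 0.10 (edgeR adjusted p = 0.121). Its sequence holds 12 A in the 20 bases after its end, the most of any mitochondrial gene.

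MT-CO2 (ENSG00000198712; chrM:7586-8269, + strand), a second core subunit of the same complex, changed in the opposite direction. It was at 16509, 20092 and 22018 CPM with DMSO and 8282, 15626 and 9891 CPM with sorafenib in MC. With M222 it was at 16279, 20490.3 and 20638 CPM with DMSO and 8189, 12666 and 8249 CPM with sorafenib and in M512 at 17917, 16306 and 20314 CPM with DMSO and 6938, 10237 and 7158 CPM with sorafenib. Every sorafenib library was lower than the DMSO libraries of its transfection, although replicate 2 with sorafenib stood above its partners in all 3 transfections. As an average of 24 h it changed by -0.99 ± 0.13 (edgeR adjusted p = 5.35e-06). At 6 h MT-CO2 was at 15406, 16389 and 15248 CPM with DMSO and 16539, 16455 and 13801 CPM with sorafenib in IC and at 16244, 13914 and 18434 CPM with DMSO and 15659, 14382 and 17903 CPM with sorafenib in I200c, with overlap. The ratio of MT-CO1 to MT-CO2 counts was 0.0886 to 0.135 (median 0.103) in the DMSO libraries of 24 h and 0.226 to 0.845 (median 0.647) in those with sorafenib, without overlap.

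MT-CO3 (ENSG00000198938; chrM:9207-9990, + strand), the third core subunit, fell as well. It was at 22276, 18804 and 21517 CPM with DMSO and 15649.6, 16530.0 and 14002 CPM with sorafenib in MC and at 27227, 20656 and 21179 CPM with DMSO and 14957, 14151 and 11296 CPM with sorafenib in M222. With M512 it was at 17563, 16773 and 19800.2 CPM with DMSO and 13741, 15106 and 9970.0 CPM with sorafenib. No sorafenib library of 24 h overlapped the DMSO libraries of its transfection, and the averaged log2 fold change was -0.57 ± 0.11 (edgeR adjusted p = 2.69e-04). At 6 h the levels were 16213, 16466 and 16299 CPM with DMSO and 16443, 16679 and 12965 CPM with sorafenib in IC and 21364, 19485 and 21564 CPM with DMSO and 14431, 15287 and 15592 CPM with sorafenib in I200c, where the groups did not overlap.

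MT-ND3 (ENSG00000198840; chrM:10059-10404, + strand), a small subunit of complex I, was at 14340.4, 14406 and 14895 CPM with DMSO and 7013, 11359 and 8853 CPM with sorafenib in MC. Under M222 it stood at 15068, 16594 and 19658 CPM with DMSO and 7503, 10622 and 8135 CPM with sorafenib and in M512 at 15700.4, 15446 and 17216 CPM with DMSO and 7390.1, 8592 and 7223 CPM with sorafenib. All sorafenib libraries of 24 h were lower, and the averaged log2 fold change was -0.91 ± 0.11 (edgeR adjusted p = 9.52e-07). In the 6 h libraries it was at 15078, 12832 and 15613 CPM with DMSO and 12169.5, 11711 and 12573 CPM with sorafenib in IC, without overlap, and at 14034, 16419 and 13234 CPM with DMSO and 9382, 11347 and 13734 CPM with sorafenib in I200c, with overlap. The ratio of MT-ND1 to MT-ND3 counts, both of complex I, was 0.193 to 0.357 (median 0.274) in the DMSO libraries of 24 h and 0.457 to 0.981 (median 0.781) in the sorafenib libraries.

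MT-ND5 (ENSG00000198786; chrM:12337-14148, + strand), the largest subunit of complex I among these genes, was at 7041, 5379 and 5897 CPM with DMSO and 3699, 3524 and 3062 CPM with sorafenib in MC. It was at 3819, 5037 and 6395 CPM with DMSO and 3009, 3349 and 2911 CPM with sorafenib in M222, where the groups did not overlap either. In M512 it was at 3840.0, 3607 and 2862 CPM with DMSO and 3765, 4227 and 2448 CPM with sorafenib, with overlap. The averaged log2 fold change was -0.52 ± 0.12 (edgeR adjusted p = 0.0026). After 6 h the level was 4648, 4287 and 2713 CPM with DMSO and 4892, 4337 and 3458 CPM with sorafenib in IC and 3614, 5389 and 2579 CPM with DMSO and 4127, 4449 and 3348 CPM with sorafenib in I200c, with overlap.

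The other mRNAs did not pass the averaged test of 24 h. The log2 fold change was 0.05 ± 0.10 for MT-ND4, 0.01 ± 0.18 for MT-ND2 and 0.15 ± 0.13 for MT-ND4L, further subunits of complex I. It was -0.03 ± 0.10 for MT-CYB, the cytochrome b of complex III. For both ATP synthase subunits it was -0.10 ± 0.12 (MT-ATP6) and -0.71 ± 0.29 (MT-ATP8). MT-ATP8 varied widely between libraries of a group, and with sorafenib in M512 it was at 11097, 7382 and 645 CPM. Members of 1 complex differed in direction: complex I had 1 gene called higher and 2 called lower, and complex IV 1 called higher and 2 called lower.

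**Figure D3:**
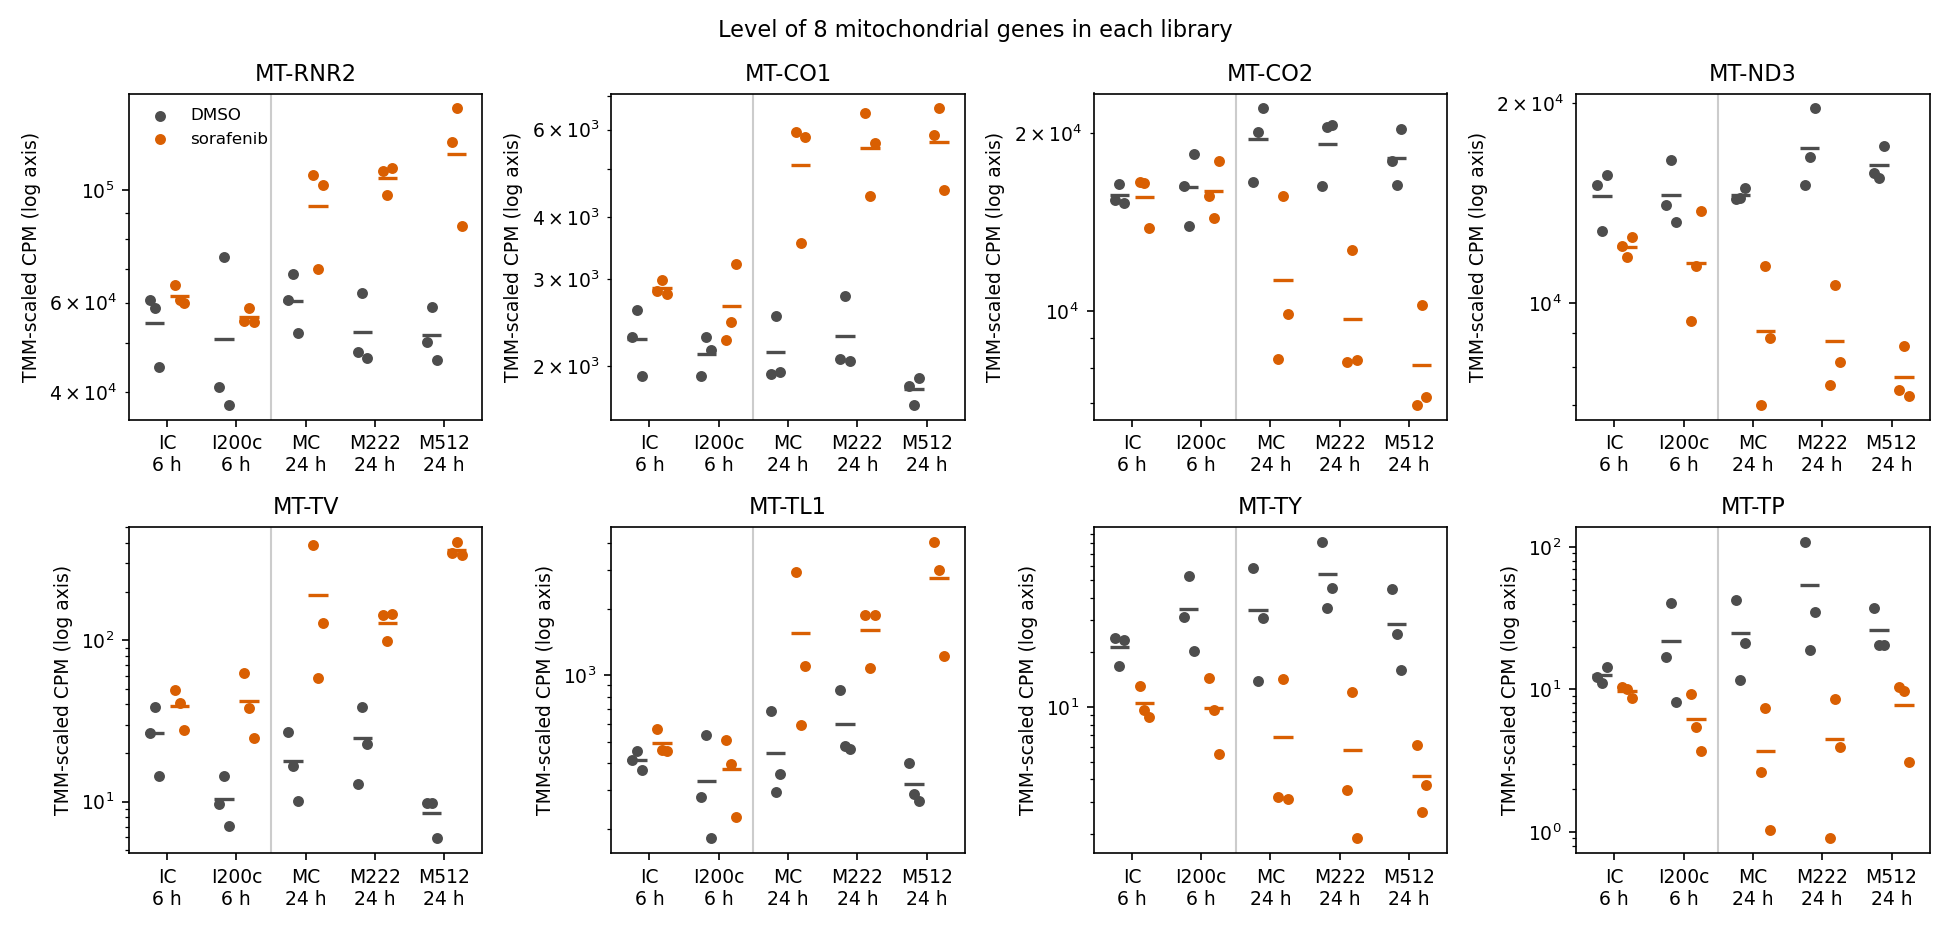
Level (TMM-scaled CPM, log axis) of 8 mitochondrial genes in each of the 30 libraries, by transfection and time. Points are libraries and bars means of 3, with DMSO in grey and sorafenib in orange; MT-RNR2, MT-CO1, MT-TV and MT-TL1 are higher and MT-CO2, MT-ND3, MT-TY and MT-TP lower with sorafenib at 24 h, with MT-TL1 and MT-TY overlapping in MC.

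The genes of the light template had low counts in all groups. Their 8 tRNAs summed to 36.8 to 221.7 CPM of the total counts (median 65.9) in the 9 DMSO libraries of 24 h and to 5.31 to 28.9 CPM (median 10.5) in the 9 sorafenib libraries. At 6 h the sum was 41.8 to 114 CPM (median 57.7) with DMSO and 15.0 to 34.1 CPM (median 25.9) with sorafenib. The groups did not overlap at either time. The 14 tRNAs of the heavy template summed to 1013 to 2628 CPM (median 1428) with DMSO and 1396 to 4708 CPM (median 2339) with sorafenib at 24 h, with overlap. All 7 light template genes tested at 24 h had an averaged log2 fold change below 0, where the median over all genes was -0.04. Of these 7, 3 were called lower, against 12.4% of all genes. Of the 24 heavy template genes 12 were above and 12 below 0, and 7 were called lower.

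MT-TY (ENSG00000210144; chrM:5826-5891, - strand), the tRNA for tyrosine, was the one member called lower in the averaged tests of both times. It was at 58.3, 13.8 and 30.7 CPM with DMSO and 3.19, 14.2 and 3.10 CPM with sorafenib in MC, where replicate 2 with sorafenib lay inside the DMSO range. In M222 it was at 81.2, 34.9 and 45.1 CPM with DMSO and 3.48, 12.03 and 1.89 CPM with sorafenib and in M512 at 44.7, 25.4 and 15.9 CPM with DMSO and 6.22, 2.64 and 3.73 CPM with sorafenib, without overlap. The averaged log2 fold change of 24 h was -2.81 ± 0.37 (edgeR adjusted p = 4.28e-06). At 6 h it was at 24.1, 16.8 and 23.5 CPM with DMSO and 13.1, 9.65 and 8.80 CPM with sorafenib in IC and at 31.1, 52.6 and 20.3 CPM with DMSO and 14.4, 9.64 and 5.50 CPM with sorafenib in I200c, without overlap in either.

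MT-TP (ENSG00000210196; chrM:15956-16023, - strand), the tRNA for proline and the last gene before the control region, was at 42.2, 11.6 and 21.03 CPM with DMSO and 2.63, 7.39 and 1.03 CPM with sorafenib in MC. With M222 it was at 109, 18.8 and 35.1 CPM with DMSO and 0.902, 8.62 and 3.96 CPM with sorafenib and in M512 at 37.6, 20.5 and 20.4 CPM with DMSO and 10.5, 9.75 and 3.11 CPM with sorafenib. The sorafenib libraries of 24 h were all lower, and the averaged log2 fold change was -2.76 ± 0.41 (edgeR adjusted p = 2.02e-05). After 6 h it was at 12.2, 11.1 and 14.4 CPM with DMSO and 10.5, 10.1 and 8.66 CPM with sorafenib in IC, without overlap, and at 16.8, 40.4 and 8.17 CPM with DMSO and 9.28, 5.48 and 3.71 CPM with sorafenib in I200c, with overlap.

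MT-TC (ENSG00000210140; chrM:5761-5826, - strand), the tRNA for cysteine, and MT-TA (ENSG00000210127; chrM:5587-5655, - strand), that for alanine, lie on the light template as well and were near the limit of counting. MT-TC was at 7.98, 5.58 and 3.23 CPM with DMSO and 1.52, 2.00 and 1.03 CPM with sorafenib in MC, at 11.1, 6.57 and 8.33 CPM with DMSO and 0, 3.63 and 0.688 CPM with sorafenib in M222 and at 5.30, 3.02 and 4.65 CPM with DMSO and 0, 5.89 and 0.746 CPM with sorafenib in M512. Single libraries with sorafenib had no count, and M512 overlapped. At 6 h MT-TC was at 8.36, 6.14 and 5.87 CPM with DMSO and 5.07, 1.93 and 2.79 CPM with sorafenib in IC and at 4.17, 6.16 and 3.58 CPM with DMSO and 3.13, 0 and 0.957 CPM with sorafenib in I200c. Over the 3 transfections the change was -1.87 ± 0.58 (edgeR adjusted p = 0.0195) at 24 h. MT-TA was at 2.72, 2.27 and 3.18 CPM with DMSO and 0.350, 0.643 and 1.12 CPM with sorafenib in IC and at 3.87, 4.56 and 2.80 CPM with DMSO and 0, 1.01 and 0.837 CPM with sorafenib in I200c, both without overlap. Its averaged change was -2.24 ± 0.59 (edgeR adjusted p = 0.0419) at 6 h, a call that was lost in each of the 12 fits without 1 library (highest adjusted p 0.155 without IC_sorafenib replicate 1). At 24 h it was at 0.760, 0.728 and 1.03 CPM with DMSO and 0.415, 0.998 and 0 CPM with sorafenib in MC, 4.14, 2.04 and 3.12 CPM with DMSO and 0.516, 2.27 and 0.688 CPM with sorafenib in M222 and 0.616, 3.77 and 0.704 CPM with DMSO and 0.583, 0 and 0 CPM with sorafenib in M512, and did not pass. MT-TQ, the tRNA for glutamine, had a log2 fold change of -1.32 ± 0.62 at 24 h and -1.46 ± 0.40 at 6 h without passing.

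MT-ND6 (ENSG00000198695; chrM:14149-14673, - strand), a complex I subunit, was at 115, 104 and 80.9 CPM with DMSO and 70.8, 96.8 and 55.8 CPM with sorafenib in MC. Its level was 116, 129 and 155 CPM with DMSO and 82.9, 108 and 138 CPM with sorafenib in M222 and 120.5, 209 and 134 CPM with DMSO and 127, 178 and 37.2 CPM with sorafenib in M512. All 3 overlapped, and the averaged log2 fold change of 24 h was -0.39 ± 0.20 (edgeR adjusted p = 0.157). In the 6 h libraries it was at 102, 100.2 and 109.5 CPM with DMSO and 96.3, 91.7 and 93.7 CPM with sorafenib in IC, without overlap, and at 201, 239.9 and 109 CPM with DMSO and 60.5, 120.0 and 80.6 CPM with sorafenib in I200c, with overlap.

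On the heavy template 3 tRNAs were called lower at 24 h. MT-TT (ENSG00000210195; chrM:15888-15953, + strand), the tRNA for threonine, was at 20.7, 28.6 and 21.6 CPM with DMSO and 10.7, 18.8 and 4.13 CPM with sorafenib in MC, at 22.2, 24.3 and 19.4 CPM with DMSO and 6.96, 10.4 and 2.41 CPM with sorafenib in M222 and at 31.05, 33.4 and 39.9 CPM with DMSO and 9.91, 6.09 and 5.47 CPM with sorafenib in M512. No group pair of 24 h overlapped, and the averaged log2 fold change was -1.71 ± 0.26 (edgeR adjusted p = 2.78e-05). At 6 h it was at 24.9, 28.4 and 19.3 CPM with DMSO and 22.03, 17.5 and 13.4 CPM with sorafenib in IC and at 33.5, 46.1 and 44.6 CPM with DMSO and 33.8, 23.03 and 20.3 CPM with sorafenib in I200c, with overlap. MT-TL2 (ENSG00000210191; chrM:12266-12336, + strand), the leucine tRNA that reads CUN codons, was at 11.5, 4.61 and 6.18 CPM with DMSO and 0.554, 3.79 and 0.148 CPM with sorafenib in MC, 12.97, 5.44 and 12.3 CPM with DMSO and 0, 3.40 and 0.516 CPM with sorafenib in M222 and 13.2, 4.23 and 4.93 CPM with DMSO and 0, 2.64 and 3.36 CPM with sorafenib in M512. These pairs did not overlap either, although the counts were few, and the averaged log2 fold change was -2.46 ± 0.60 (edgeR adjusted p = 0.00374). At 6 h MT-TL2 was at 3.69, 4.55 and 6.11 CPM with DMSO and 1.40, 3.22 and 0.838 CPM with sorafenib in IC and at 0.447, 15.8 and 2.01 CPM with DMSO and 1.90, 1.93 and 2.39 CPM with sorafenib in I200c.

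MT-TF (ENSG00000210049; chrM:577-647, + strand), the tRNA for phenylalanine, is the first gene after the control region. In MC it was at 1114, 586 and 758 CPM with DMSO and 698, 657 and 401 CPM with sorafenib, with overlap. Under M222 it stood at 1494, 859 and 1052 CPM with DMSO and 455, 552 and 425 CPM with sorafenib and in M512 at 1024, 882 and 788 CPM with DMSO and 741, 786 and 354 CPM with sorafenib, without overlap. At 24 h the averaged change was -0.76 ± 0.16 (edgeR adjusted p = 0.00115). At 6 h the levels were 692, 782 and 827 CPM with DMSO and 873, 730.2 and 984 CPM with sorafenib in IC and 1112, 1097 and 833 CPM with DMSO and 914, 932 and 790.1 CPM with sorafenib in I200c, with overlap.

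Of the remaining tRNAs, 4 with a mean of at least 10 counts per library did not pass at 24 h. The log2 fold change was -0.40 ± 0.30 for MT-TM (methionine), 0.45 ± 0.46 for MT-TD (aspartate), 0.61 ± 0.36 for MT-TS2 (serine, AGY codons) and -1.80 ± 0.72 for MT-TH (histidine). The other 7 tRNAs had means of 0 to 6.53 counts per library, and 2 of these had no count in any library.

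Within single transfections the same tests called fewer genes. In MC 7 of 31 were called, 3 higher and 4 lower, against 2.6% of all genes (1.8% higher and 0.793% lower). They were MT-TV (3.43 ± 0.49), MT-TL1 (1.81 ± 0.45) and MT-CO1 (1.26 ± 0.22), which rose, and MT-TP (-2.82 ± 0.72), MT-TY (-2.38 ± 0.62), MT-ND5 (-0.83 ± 0.21) and MT-ND3 (-0.68 ± 0.19), which fell. In MC only MT-CO1 and MT-TV were called in all 6 fits without 1 library, and the count was 2 without MC_DMSO replicate 3 or MC_sorafenib replicate 1 and 3 without MC_DMSO replicate 1 or MC_sorafenib replicate 3.

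In M222 11 of 31 were called, 4 higher and 7 lower, against 4.38% of all genes (2.82% higher and 1.56% lower). MT-TV (2.40 ± 0.47), MT-TI (1.27 ± 0.34), MT-CO1 (1.26 ± 0.22) and MT-RNR2 (1.00 ± 0.21) rose. MT-TP (-3.66 ± 0.73), MT-TY (-3.26 ± 0.64), MT-TT (-1.75 ± 0.45), MT-TF (-1.25 ± 0.28), MT-CO2 (-0.98 ± 0.23), MT-ND3 (-0.97 ± 0.19) and MT-CO3 (-0.78 ± 0.18) fell. MT-CO1, MT-ND3, MT-TV, MT-RNR2, MT-TY and MT-TP were called in all 6 fits without 1 library. The count was 6 without M222_sorafenib replicate 1 and 7 without M222_DMSO replicate 3 or M222_sorafenib replicate 3.

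In M512 9 of 31 were called, 5 higher and 4 lower, against 9.96% of all genes (5.34% higher and 4.62% lower). MT-TV (5.38 ± 0.54), MT-TL1 (3.08 ± 0.48), MT-CO1 (1.63 ± 0.22), MT-RNR2 (1.16 ± 0.21) and MT-TI (1.07 ± 0.34) rose. MT-TY (-2.80 ± 0.64), MT-TT (-2.31 ± 0.45), MT-CO2 (-1.20 ± 0.23) and MT-ND3 (-1.09 ± 0.19) fell. Of these calls 8 held in all 6 fits without 1 library, and that of MT-TI was lost in 5 of 6 (highest adjusted p 0.143, without M512_DMSO replicate 1). The 3 transfections were fitted together, and MC, M222 and M512 differ in their DMSO and sorafenib libraries alike, so a gene called in one and not in another is not thereby shown to differ.

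At 6 h no mitochondrial gene was called in IC (edgeR), where 0.0393% of all genes were (0.0314% higher and 0.00785% lower), and 3 had an unadjusted p under 0.05. DESeq2 called 0 as well. In I200c 6 of 31 were called, 1 higher and 5 lower, against 2.28% of all genes (0.911% higher and 1.37% lower). MT-TV rose by 2.00 ± 0.36, and the changes of the other 5 were -1.82 ± 0.43 (MT-TP), -1.81 ± 0.34 (MT-TY), -1.11 ± 0.27 (MT-TI), -1.08 ± 0.24 (MT-ND6) and -0.47 ± 0.12 (MT-CO3). Here MT-TV and MT-TY were called in all 6 fits without 1 library, and the count was 3 without I200c_DMSO replicate 1, I200c_sorafenib replicate 1 or I200c_sorafenib replicate 2. I200c_DMSO replicate 2, the library with the highest mitochondrial share, had the highest level of the DMSO libraries of its group for MT-TP, MT-TY and MT-ND6; without it the change of MT-TP was -0.996 (edgeR adjusted p = 0.143).

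Averaged over IC and I200c, 3 of 31 genes were called against 2.89% of all genes (1.15% higher and 1.73% lower): MT-TV (1.28 ± 0.25, edgeR adjusted p = 0.00638), MT-TY (-1.43 ± 0.24, edgeR adjusted p = 0.00175) and MT-TA, given above. MT-TV and MT-TY remained called in all 12 fits without 1 library. The count was 5 without I200c_DMSO replicate 2, I200c_DMSO replicate 3 or I200c_sorafenib replicate 1. No mRNA or rRNA was called, and the median of the 13 mRNAs was -0.03 against 0.01 over all genes. All 6 light template genes tested had a log2 fold change below 0.

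Without a test, groups that do not overlap can be counted beside the share of all genes for which this holds. In IC this was so for 3 of 13 mRNAs and 6 of 16 tRNAs against 13% of all genes, and in I200c for 1 mRNA and 7 tRNAs against 17.3%. In MC it was so for 6 mRNAs, MT-RNR2 and 6 tRNAs against 25%. M222 had 8 mRNAs, MT-RNR2 and 9 tRNAs against 26.8%, and M512 had 4 mRNAs, MT-RNR2 and 12 tRNAs against 29.8%.

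**Figure D4:**
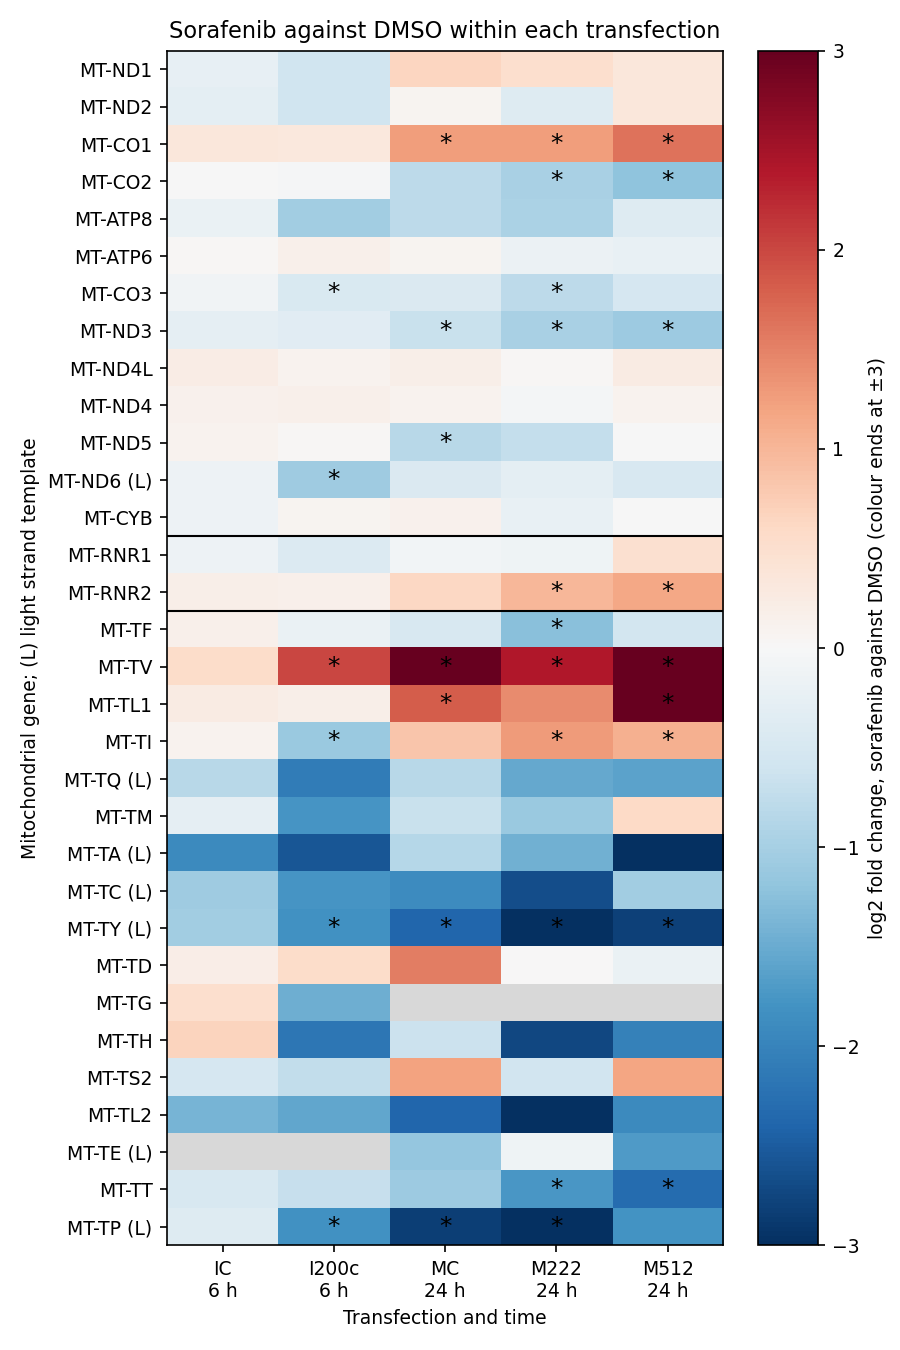
Log2 fold change of sorafenib against DMSO (colour) for the mitochondrial genes tested (rows, by class and in genome order) within each of the 5 transfections (columns). Stars mark an adjusted p under 0.05 and grey cells were not tested; MT-TV is starred in all columns but IC, and MT-CO1 in the 3 columns of 24 h.

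Neither the miRNA oligonucleotides nor their interaction with sorafenib gave a called mitochondrial gene. For I200c against IC the count was 0 of 31 in DMSO, against 0.0157% of all genes, and 0 in sorafenib, against 0% of all genes; 8 and 2 genes had an unadjusted p under 0.05, and DESeq2 called 0 in both. For M222 against MC it was 0 in both, against 0% of all genes, with 1 and 1 genes under an unadjusted p of 0.05 and 0 by DESeq2. For M512 against MC it was 0 in both, against 0.634% of all genes in DMSO (0.264% higher and 0.37% lower) and 0.355% in sorafenib (0.0378% higher and 0.317% lower), with 3 and 1 genes under an unadjusted p of 0.05. DESeq2 called 1 gene there, MT-ND5, in DMSO. Its log2 fold change in M512 against MC with DMSO was -0.83 ± 0.21 (edgeR adjusted p = 0.0758) in edgeR. MT-TV in M512 against MC with sorafenib was called without MC_sorafenib replicate 1 alone.

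The interaction of M222 with sorafenib is the test of whether MT-TF and MT-CO3 fell further with this mimic than with its control. For MT-TF the change was -1.25 ± 0.28 in M222 and -0.48 ± 0.28 in MC, and their difference was -0.77 ± 0.39 (edgeR adjusted p = 1). For MT-CO3 it was -0.78 ± 0.18 in M222 and -0.43 ± 0.18 in MC, with a difference of -0.34 ± 0.26 (edgeR adjusted p = 1). With DMSO alone the mimic against its control gave 0.45 ± 0.28 for MT-TF and 0.12 ± 0.18 for MT-CO3, and with sorafenib -0.33 ± 0.28 and -0.22 ± 0.18. In edgeR 0 of 31 genes were called in this interaction, against 0% of all genes, 0 had an unadjusted p under 0.05, and DESeq2 called 0. For M512 0 were called against 0.00755% of all genes, with 2 under an unadjusted p of 0.05. These were MT-TV (1.95 ± 0.66, edgeR adjusted p = 0.849) and MT-ND5 (0.81 ± 0.30, edgeR adjusted p = 0.885). For I200c 0 were called against 0% of all genes, with 5 under an unadjusted p of 0.05. The differences for MT-TI and MT-TV were -1.22 ± 0.38 (edgeR adjusted p = 1) and 1.45 ± 0.50 (edgeR adjusted p = 1). DESeq2 called 0 in the interactions of M512 and I200c.

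Between the transfection controls, 24 h against 6 h with DMSO called 0 of 30 genes against 0.528% of all genes (0.304% higher and 0.224% lower), with 6 under an unadjusted p of 0.05, and DESeq2 called 1 (MT-ND5). The difference between the sorafenib effects of MC and IC also called 0, against 0.216% of all genes (0.12% higher and 0.096% lower), with 9 under an unadjusted p of 0.05 and 3 by DESeq2 (MT-ND5, MT-CO1 and MT-TP). That difference was 2.84 ± 0.73 (edgeR adjusted p = 0.112) for MT-TV, 0.90 ± 0.26 (edgeR adjusted p = 0.144) for MT-CO1 and -2.47 ± 0.71 (edgeR adjusted p = 0.144) for MT-TP. It rests in part on MC_sorafenib replicate 2: without this library 6 genes were called (MT-CO2, MT-CO1, MT-TL1, MT-TV, MT-TY and MT-TP).

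MC_sorafenib replicate 2 and M222_sorafenib replicate 2 lay nearer to their DMSO groups than their partners did for MT-CO2, MT-ND3, MT-CO1, MT-TV, MT-TY and MT-TP. For MT-CO2 and MT-ND3 this was so for M512_sorafenib replicate 2 as well. The first 2 were also the libraries of their groups with the fewest counts (4939876 and 4566937) and the most genes with a count (16132 and 16232), and replicate 2 of MC and M222 with DMSO also had the fewest counts (3941570 and 4474859) and the most genes with a count (16334 and 16243) in its group. M512_sorafenib replicate 3 had the most genes with a count in its group (16582), but also the most counts (8574340). Several sorafenib libraries of 24 h had fewer genes with a count than the DMSO libraries, with overlap in each transfection. In MC 15171, 16334 and 15250 genes had a count with DMSO and 13394, 16132 and 15170 with sorafenib. In M222 these were 13698, 16243 and 15365 and 13252, 16232 and 14703, and in M512 14641, 15678 and 16114 and 13656, 13866 and 16582. The part of these features in the results was not tested.

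Nuclear genes that transcribe, process, modify or degrade mitochondrial RNA or copy mitochondrial DNA formed a list of 50, all of which were tested. At 24 h 7 of the 50 were called higher and 9 lower in the averaged comparison, against 25.8% of all genes called (13.4% higher and 12.4% lower). The median of the list was 0.03 against -0.04 over all genes. The list as a set was not tested, and its genes are given one by one. MTPAP, the mitochondrial poly(A) polymerase, went from 27.2 ± 4.62 to 51.3 ± 7.42 CPM in MC (mean ± SD, n = 3), with an averaged log2 fold change of 0.88 ± 0.13 (edgeR adjusted p = 1.39e-05). SUPV3L1, the helicase of the RNA degradosome, went from 21.5 ± 2.59 to 37.3 ± 12.2 CPM in MC, with 0.99 ± 0.17 (edgeR adjusted p = 1.47e-04). REXO2, an exonuclease for short RNAs, rose by 0.71 ± 0.16 (edgeR adjusted p = 0.00171) and SLIRP, which binds mitochondrial mRNAs together with LRPPRC, by 0.37 ± 0.10 (edgeR adjusted p = 0.00811).

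Among those that fell were TRMT10C and PRORP, subunits of the RNase P that cuts the 5′ ends of mitochondrial tRNAs. TRMT10C went from 26.2 ± 7.17 to 18.6 ± 6.34 CPM in MC and from 32.7 ± 2.04 to 15.8 ± 5.25 CPM in M512, with an averaged log2 fold change of -0.81 ± 0.19 (edgeR adjusted p = 0.0026). PRORP went from 13.3 ± 4.88 to 5.97 ± 4.84 CPM in MC and changed by -1.03 ± 0.33 (edgeR adjusted p = 0.0224). ELAC2, which cuts the 3′ ends, did not pass (0.15 ± 0.14, edgeR adjusted p = 0.474), nor did HSD17B10, the other RNase P subunit (-0.18 ± 0.12, edgeR adjusted p = 0.277). MGME1, an exonuclease of mitochondrial DNA, and TWNK, its replicative helicase, changed by -0.51 ± 0.12 (edgeR adjusted p = 0.00285) and -0.51 ± 0.16 (edgeR adjusted p = 0.0215). TRMU, which modifies tRNAs, changed by -0.72 ± 0.21 (edgeR adjusted p = 0.0149) and FASTK by -0.58 ± 0.18 (edgeR adjusted p = 0.0209). The RNA polymerase POLRMT and the transcription factor TFAM did not pass (0.06 ± 0.22, edgeR adjusted p = 0.876, and 0.27 ± 0.14, edgeR adjusted p = 0.163). Also called higher were MTERF3 (1.63 ± 0.59, edgeR adjusted p = 0.0442), TRIT1 (0.66 ± 0.24, edgeR adjusted p = 0.0405) and FASTKD5 (0.41 ± 0.14, edgeR adjusted p = 0.0339). Also called lower were PPARGC1A (-0.73 ± 0.26, edgeR adjusted p = 0.0433), TFB1M (-0.35 ± 0.12, edgeR adjusted p = 0.0423) and GTPBP3 (-0.50 ± 0.17, edgeR adjusted p = 0.0291). At 6 h 1 gene of the list was called higher (MTERF4, 0.58 ± 0.13, edgeR adjusted p = 0.018) and none lower, against 2.89% of all genes called.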

How the data were processed

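Messenger RNA of 30 HepG2 libraries was measured with QuantSeq 3′ FWD kits. The deposited table holds raw counts per Ensembl gene, which the authors made by quality and adapter trimming, STAR alignment to GRCh38 and HTSeq counting after DRAGEN had written the reads. Annotation release and strand handling are not given in the sources used here. Their normalised table was not used here. Of 60199 lines, 92 without a gene name were dropped (1.51e-06% of the counts). Symbols matched 56104 identifiers, and positions and sequences came from GRCh38 with GENCODE 44, which may not be the release used for counting.

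Groups came from the sample labels, with 3 replicates each. The study describes the experiments as independent replicates, but the labels do not say whether these were separate cultures, so p-values measure the spread between these libraries. The 30 replicate pairs differed beyond sampling noise, with a chi-square of 4.54 to 66.2 for each degree of freedom (genes of 20 counts or more). Tests were the two-sided quasi-likelihood F test of edgeR 4.0.16 (R 4.3.3) on raw counts, with TMM scaling, its filter on low counts and Benjamini-Hochberg adjustment over all genes, in 3 fits: 12 libraries of 6 h (12738 genes), 18 of 24 h (13244 genes) and 12 of IC and MC (12500 genes). SE is the size of the log2 fold change over the square root of F. On simulated data of 13244 genes for MC at 24 h, 68% of genes changed by a log2 of 2 and 25% of those changed by 1 were recovered. Alternatives were total counts, median-ratio factors, TMM on nuclear genes alone, DESeq2 1.42.0, no filter, a replicate block, each transfection alone and leaving out each library. Same-numbered libraries deviated together (every correlation over 0.1) only in MC and M222 with DMSO, at 0.143 to 0.156, as read from the data. Class shares, sums and ratios were not tested.

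All mRNAs and rRNAs are named, as are tRNAs with a mean of at least 10 counts per library or a call. Values in every library are given for members called in a sorafenib comparison or an interaction and for MT-CO3, MT-TF, MT-ND6, MT-RNR1 and MT-RNR2. From the nuclear list, genes called in an averaged sorafenib comparison are named. The plan was at most 10 at each time by p, and the other called genes of 24 h were added later. ELAC2, HSD17B10, POLRMT and TFAM were added after their values were seen. The members and lists were chosen with earlier results of these data known.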

Additional observations from a re-analysis of the deposited data

Results flagged for a closer look

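MT-TI, the tRNA for isoleucine, moved in opposite directions in different transfections. Sorafenib against DMSO gave a log2 fold change of -1.11 in I200c at 6 h, where all 3 sorafenib libraries were below the DMSO libraries, and of 1.27 in M222 and 1.07 in M512 at 24 h, where all were above. The difference itself was not tested, since the times were fitted apart and differ in the kind of oligonucleotide. Its end shares 3 bases with MT-TQ on the other strand. Groups of 3 are too small for a search for single outlying libraries.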

How the results depend on the processing

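The averaged 24 h comparison gave 16 to 19 members called under every alternative run, and no member called in a sorafenib comparison changed sign under any. For single genes the call was kept 335 times and lost 10 times under the other settings, and kept 451 times and lost 71 times without 1 library. Calls over all genes tested are given in brackets. Without the filter on low counts, 10 members were called in I200c (519 of 22799 genes) and 13 in the 6 h average (547 of 22799). For I200c against IC in DMSO there were 3 (32 of 22799), and 2 in the I200c interaction (19 of 22799). M512 against MC gave 2 in DMSO (292 of 23336), 2 in sorafenib (169 of 23336) and 2 in the interaction (28 of 23336). Between times there were 4 in DMSO (573 of 22582) and 7 in the time interaction (386 of 22582). The 6 libraries of a transfection alone gave 2 in I200c (113 of 12371) and 4 in MC (218 of 12037). Total counts gave 8 in the 6 h average (376 of 12738) and 1 for M512 against MC in DMSO (73 of 13244). DESeq2 gave 8 in the 6 h average (550 of 12738) and 1 for M512 against MC in DMSO (233 of 13244). It gave 1 in the time comparison in DMSO (444 of 12500) and 3 in the time interaction (262 of 12500). The cause was not tested.

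Leaving out 1 library gave 3 to 6 members called in I200c, 2 to 9 in MC, 6 to 14 in M222, 2 to 5 in the 6 h average, 0 to 1 for M512 against MC in sorafenib, 0 to 1 between times in DMSO (1, MT-ND1, without MC_DMSO replicate 2) and 0 to 6 in the time interaction. The median of the 13 mRNAs moved from 0.07 to -0.22 in MC without MC_DMSO replicate 3 and to -0.23 without MC_sorafenib replicate 1. In M512 it moved from -0.01 to -0.15 without M512_sorafenib replicate 2, to 0.14 without replicate 3 and to -0.22 with total counts. With nuclear counts as the denominator, the mRNA share difference was -3.63 in MC and -5.72 in M222, and that of rRNAs 5.54 in M222.

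The replicate block gave 6 members called in the 6 h average (372 of 12738 genes) and 17 in the 24 h average (3653 of 13244). It gave 1 for M512 against MC in DMSO (123 of 13244) and 2 between times in DMSO (60 of 12500). Correlations of same-numbered libraries were -0.12 to 0.23, and only MC and M222 with DMSO were over 0.1 in every replicate. The block gave 0 members in the comparison of these 2 groups as well. Low correlations cannot show whether the other same-numbered libraries were handled together, and the labels do not say.

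Counts over all genes moved by more than 1.5 times with DESeq2 (35 against 5 in IC, 541 against 291 in I200c, 731 against 344 in MC, 1035 against 580 in M222, 233 against 84 for M512 against MC in DMSO, 224 against 47 in sorafenib, 444 against 66 between times and 262 against 27 in the time interaction). Without the filter they were 62 in IC, 519 in I200c and 684 in MC, and with the 6 libraries alone 0 in IC, 113 in I200c and 218 in MC. Total counts split all calls into 174 higher and 173 lower in MC, 300 and 326 in M222 and 462 and 1081 in M512. Depth limits the tRNAs: 7 of 22 had a mean of at most 6.53 counts per library.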
